A study of Mus musculus with 3 samples.

Results

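Bulk electroporation was compared with a control in cultured mouse neural progenitors by single-cell RNA sequencing. All cells of the library labelled bulk electroporation (5531) were set against all cells of the library labelled control (6091), together 11622 of the 17920 cells in the 3 libraries of the series. A cell was a barcode with at least 3000 unique molecular identifiers (UMIs, which count captured transcripts), at least 500 genes and at most 20% of its UMIs from mitochondrially encoded genes. The progenitors came from the brains of mice at postnatal day 1 and grew as neurospheres, floating aggregates, with 20 ng/mL of epidermal growth factor and N2 and B27 supplements. For the experiment 50000 cells were plated, on dishes coated with poly-D-lysine or on the devices used for localized pulses, and kept for 16 hours, and the bulk group was then pulsed in a Lonza 4D Nucleofector Y unit with program DS137. Both groups were harvested at 4 hours with 0.05% trypsin, and 10000 cells per condition were loaded for 3' capture. No DNA, RNA or other cargo is named in the labels for any group, and neither the surface under the control cells nor the handling they received is given. Mouse strain, sex and number of animals are not given. Each group is 1 library, so no test between conditions was possible: intervals below are 95% and cover counting error only, and spread is given over cells, which are not replicates.

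More UMIs were captured per bulk cell than per control cell, and whether this came from RNA content, sequencing depth or doublets was not tested. The median cell held 9542 UMIs in control (quartiles 7075.5 and 12432.5) and 11644 in bulk (quartiles 8461.5 and 15962), and 68 control cells (1.12%) but 533 bulk cells (9.64%) passed 25000 UMIs. Mitochondrially encoded transcripts made up 3.44% of the median control cell and 4.12% of the median bulk cell. Levels were therefore taken as UMIs summed over cells per 1000000 (CPM), and shares of cells were read after every cell was thinned to 3000 UMIs. The 2 libraries shared 9 cell barcodes. Markers of the labelled cell type were widely detected. Vim, an intermediate filament protein, was detected in 96.4% of control and 97.5% of bulk cells. Fabp7, a fatty acid carrier of radial glia, was detected in 99.2% and 99.6%, and Sox2, a stem cell transcription factor, in 55.9% and 61.6%. Astrocyte markers summed to 341 CPM in control and 348 in bulk, and neuron markers to 235 and 239. At least 1 UMI of the astrocyte markers was found in 54.3% of thinned control and 54.7% of bulk cells. For neuron markers these shares were 48.3% and 50.6%, so the share of cells that were progenitors is not shown. Markers of microglia or macrophages summed to 0.130 CPM in control and 0.194 in bulk with Aif1, C1qa and C1qb at 0 UMIs in both, and those of mural cells or fibroblasts to 0.550 and 0.581. Markers of oligodendrocyte precursors summed to 429 CPM in control and 427 in bulk, although 7 of 9 were lower in bulk. In such sums, fewer cells of a type and less RNA per cell cannot be told apart.

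Electroporation opens pores in the plasma membrane with short electric pulses, and cells are exposed to altered ion balance and membrane damage while the pores close. The genes described here belong mainly to 3 well-known programs. Type I interferon signalling runs from sensors of foreign nucleic acid through interferon receptors and STAT and IRF factors to a large set of antiviral effectors, many of which carry an interferon-stimulated response element in their promoters. The integrated stress response slows translation through phosphorylated eIF2 while favouring Atf4, which with C/EBP partners turns on genes of amino acid supply and, through Ddit3 (CHOP), of cell death. SREBP factors, released from the endoplasmic reticulum when sterols are low, turn on the enzymes of cholesterol and fatty acid synthesis.

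Promoter sequences were looked up for the list members with the largest differences in each program, to show which of them carry the element their program is known for. Windows came from RefSeq (GRCm38.p6) and ran from 250 bases before to 50 after an annotated start. The background was the 5810 genes that reached 20 CPM in control, in bulk or in both, of which 4677 matched a window. A gene was counted as holding an element if any of its windows did. The interferon core, GAAA, any 2 bases and GAAA on either strand, was present in 3.53% of those 4677 genes and in 21 of the 42 interferon-stimulated effectors that matched. The members with the largest ratios that held it were Isg15 (chr4:156200835-156200936, minus strand), Ifit1 (chr19:34640745-34640853, plus strand) and Rsad2 (chr12:26456523-26456612, minus strand). They are printed 5′ to 3′ on the gene's own strand, all upstream of the start, with each core in capitals; the 3 matches of Isg15 overlap each other:
Isg15: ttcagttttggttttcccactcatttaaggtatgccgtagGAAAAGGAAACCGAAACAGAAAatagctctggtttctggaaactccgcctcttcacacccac
Ifit1: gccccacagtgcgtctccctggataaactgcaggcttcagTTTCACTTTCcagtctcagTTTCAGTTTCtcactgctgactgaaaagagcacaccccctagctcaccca
Rsad2: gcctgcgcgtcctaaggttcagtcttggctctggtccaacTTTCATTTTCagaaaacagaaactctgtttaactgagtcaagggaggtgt

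The composite element of C/EBP and ATF factors, TGATGNAA on either strand, was found in 2.59% of the 4677 genes. Of the 12 cytosolic tRNA synthetases that matched, a list that lay close to control, 5 held it. It was present in 4 of the 9 stress response factors and in 3 of the 8 stress effectors that matched. Only members with the element upstream of the start were considered for printing. The largest ratios among such members were those of Chac1 (chr2:119351009-119351096, plus strand), Atf3 (chr1:191183396-191183483, minus strand) and Fgf21 (chr7:45615582-45615669, minus strand). For Fgf21 the log2 ratio of bulk over control was -1.20 with 1 CPM added to both libraries and -1.85 with 0.1 CPM. All 3 are printed with the element in capitals:
Chac1: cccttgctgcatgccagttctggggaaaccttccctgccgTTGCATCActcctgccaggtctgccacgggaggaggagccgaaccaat
Atf3: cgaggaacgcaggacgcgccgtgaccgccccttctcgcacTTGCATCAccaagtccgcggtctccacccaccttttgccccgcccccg
Fgf21: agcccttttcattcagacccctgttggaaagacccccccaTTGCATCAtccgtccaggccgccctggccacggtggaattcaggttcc

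The sterol response element in the form TCACNCCAC was rare, with 1.37% of the 4677 genes, and Hmgcs1 was the 1 cholesterol enzyme of 15 matched that held it (chr13:119690174-119690262, plus strand, element in capitals). The general promoter element CCAAT, which NF-Y binds beside many sterol elements, was present in 44.2% of the 4677 genes and in 14 of the 15 cholesterol enzymes. That share was not particular to these enzymes. Among matched members of other lists, CCAAT was in 16 of 18 mitosis genes and 15 of 17 genes of the unfolded protein response. Other lists lay lower, such as small nucleolar RNA hosts with 4 of 14. These matches describe letters in a window and show nothing of binding:
Hmgcs1: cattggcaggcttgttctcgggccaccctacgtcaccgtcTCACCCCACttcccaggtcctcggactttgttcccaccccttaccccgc

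Most genes stood at nearly the same level in both libraries. Over the 5810 genes the median log2 ratio of bulk over control (of CPM + 1, as in all log2 ratios below) was 0.07, with quartiles of -0.09 and 0.23, and 3603 genes (62.0%) were above 0. Counts of higher members of a list are to be read against that share. At least 2-fold higher in bulk were 35 genes (0.602% of the 5810), and at least 2-fold lower were 35 (0.602%). A lower bar of 1.5-fold gave 205 genes higher in bulk (3.53%) and 107 lower (1.84%). Of the 35 higher genes, 30 were under 20 CPM in control and all were protein coding. Of the 35 lower genes, 13 were under 20 CPM in bulk and 4 were long noncoding RNAs, Snhg5, Snhg1, Snhg17 and Snhg12. These 4 belong to 1 list, the small nucleolar RNA hosts described below, and the share of long noncoding RNAs over all 5810 genes was not taken. With 20 CPM required in both libraries, 5 genes were at least 2-fold higher and 22 lower. Without the cells above 25000 UMIs, the higher genes numbered 23, and in cells of 6000 to 20000 UMIs they numbered 19. The share of higher genes thus moved with the cells of many UMIs and with the level asked of control.

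**Figure D1:**
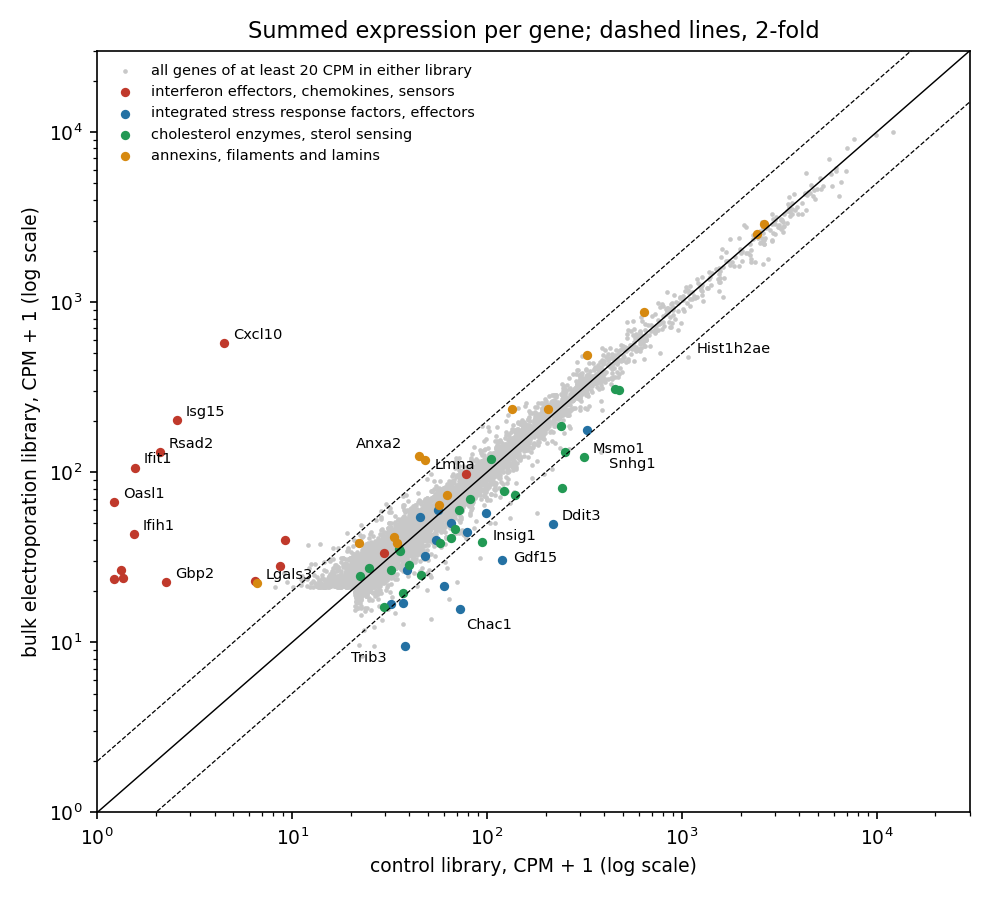
Each point is 1 of the 5810 genes, with its control level (horizontal) and bulk level (vertical) as CPM + 1 on log axes. Colours mark members of the named lists, the solid line equal levels and the dashed lines 2-fold; interferon genes from Cxcl10 to Gbp2 stand far above the diagonal at control levels of 0.227 to 3.50 CPM, and Chac1, Ddit3 and Msmo1 stand below it.

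The interferon-stimulated effectors were the set furthest above control. Of the 51 effectors, 49 were higher in bulk and 1 was lower, and their median log2 ratio was 1.26 beside 0.07 over the 5810 genes. Isg15, a ubiquitin-like modifier, stood at 1.57 CPM (interval 1.27 to 1.92) in control and 202 (199 to 205) in bulk. Ifit1, which binds viral RNA ends, stood at 0.567 and 105 CPM, and Rsad2 (viperin), which makes a chain-ending nucleotide, at 1.10 and 130. The OAS-like antiviral proteins followed, with Oasl1 at 0.227 and 65.6 CPM and Oasl2 at 0.227 and 22.5 CPM. These control levels rest on few molecules, 97 UMIs for Isg15 and 14 for Oasl1. Because 1 CPM was added to both sides, their log2 ratios of 6.30 and 5.76 are smaller than the 7.01 and 8.18 found without it. Rtp4, a transport protein of interferon responses, stood at 0.356 and 23 CPM. Of the 51 effectors, 13 reached 20 CPM in either library, 11 of them through bulk alone, so the count over those 13 was not read as support.

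Guanylate-binding proteins and immunity-related GTPases, which act on membranes around intracellular pathogens, formed a second tier. Gbp2 was at 1.26 CPM in control and 21.6 in bulk, Gbp7 at 8.21 and 38.9, Gbp3 at 7.62 and 27.2, and Irgm1 at 1.04 and 19.3. Members of these families are similar in sequence, as are Ifit3 (0.324 and 25.7 CPM) and Ifit3b (0.227 and 8.85 CPM), and reads may have been split between them. Several effectors differed little. The membrane proteins Ifitm3 and Ifitm2 stood at 76.9 and 96.9 CPM and at 28.6 and 32.3 CPM, Samhd1, which degrades nucleotides, at 15.1 and 17.3, and the RNA editor Adar at 12.9 and 13.7. The RNase L activating synthetases Oas1a, Oas2 and Oas3 were at or under 0.1 CPM in both libraries. Ifitm3, Ifitm2, Samhd1 and Adar were the 4 effectors above 10 CPM in control, and their log2 ratios ran from 0.08 to 0.33. With members of at least 5 CPM in control alone, the median log2 ratio was 0.48.

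Above the effectors in the pathway, sensors and signalling factors were higher by smaller amounts and interferon transcripts were nearly absent. Of the 14 sensors and adaptors 12 were higher in bulk (median log2 ratio 0.20). Ifih1 (MDA5), a sensor of long double-stranded RNA, was at 0.550 CPM (0.381 to 0.769) in control and 42.5 (41.0 to 44.0) in bulk. Ddx58 (RIG-I), the sensor of RNA ends, was at 2.19 and 9.19 CPM. The DNA sensor Cgas was at 2.70 and 4.45 CPM, while its adaptor STING (Tmem173) was lower in bulk, at 5.31 and 3.16 CPM. Of the 16 interferon ligand genes 14 had no UMI in either library, Ifnb1 among them. A count of 0 allows up to 0.0486 CPM in control and 0.0387 CPM in bulk. Of the 19 receptors, kinases and factors 18 were higher (median 0.39): Irf9, the DNA-binding part of the interferon-activated complex, was at 1.36 and 5.74 CPM, and Irf1 at 0.874 and 5.90. None of the 19 passed 1.5-fold with 20 CPM in either library. The 4 of the 19 with 20 CPM in both libraries had a median of 0.11.

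Chemokines, which draw leukocytes, gave the largest ratio of all. Cxcl10 stood at 3.50 CPM (3.05 to 4.00) in control and 574 (568 to 579) in bulk, a log2 ratio of 7.0, and at 5.71 CPM in the library of localized electroporation, in which cells were pulsed on a device. Ccl5 had 2 UMIs in control and 1520 in bulk (0.0324 and 19.6 CPM), and its log2 ratio without a pseudocount lay between 7.39 and 12.29. The other 11 chemokines were at or under 16.0 CPM in both libraries, so the chemokine signal was that of 2 genes. All 11 genes of antigen presentation were higher in bulk (median 0.30), among them H2-T23, a nonclassical class I molecule (0.340 and 2.97 CPM), and the peptide transporter Tap1 (1.67 and 4.14 CPM). The 3 of these 11 with 20 CPM in both libraries had a median of 0.13. Relb, a subunit of NF-kB, was at 5.03 and 11.1 CPM, and 13 of the 20 genes of its list were higher (median 0.16), a share near the 62.0% of the 5810 genes.

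The interferon genes were unevenly spread over bulk cells. After thinning, Cxcl10 was detected in 0.312% of control cells (0.188 to 0.487) and 28.0% of bulk cells (26.8 to 29.2), or in 1.12% and 45.6% before thinning. Isg15 was detected in 0.296% and 16.3% of thinned cells, and Oasl1 in 0.0328% and 7.97%. A Cxcl10-positive bulk cell held 4.54 UMIs of it on average. Barcodes of 10 to 100 UMIs, which hold free RNA or debris, carried Cxcl10 at 393 CPM in bulk and 29.4 in control, so the part of the shares that came from free RNA was not tested. The 51 effectors together gave a median of 0 UMIs per control cell (95th percentile 2) and 1 per bulk cell (95th percentile 10, highest 71). The richest 10% of bulk cells held 63.9% of these UMIs, against 47.3% in control. At least 5 effector UMIs were found in 11% of bulk cells and 0.410% of control cells. The 10 genes from Cxcl10 to Gbp2 had the largest ratios among the genes that reached the minimum level, which Ccl5 did not. Of the thinned bulk cells, 63.5% had no UMI of these 10 genes, and 19.1% held 2 or more (98.7% and 0.131% of control cells). The 10 were chosen by ratio in the same cells and reached that level through bulk alone. Their contrast with control was therefore not read as support. The share of bulk cells with none depends on the thinning and does not show that those cells lacked the transcripts. High counts of these genes were thus held by a minority of the bulk cells.

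**Figure D2:**
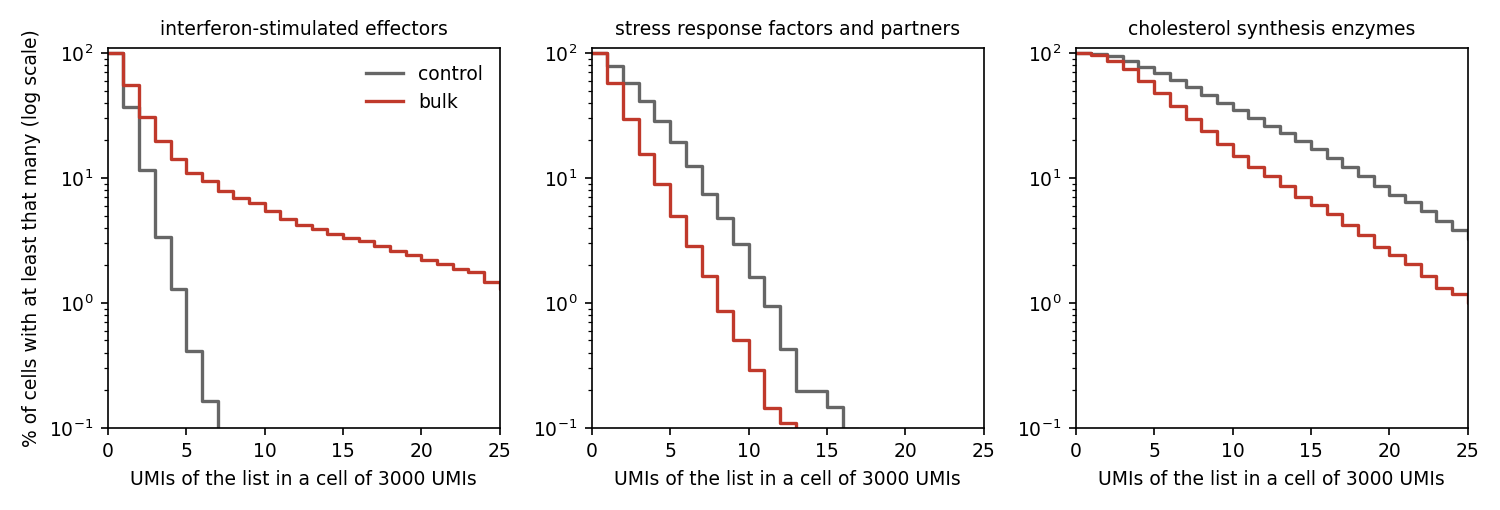
Share of cells (vertical, log scale) with at least a given number of UMIs of a list (horizontal) after thinning to 3000 UMIs, for control (grey) and bulk (red). For effectors the bulk curve carries a long tail, with 11% of bulk and 0.410% of control cells at 5 UMIs or more; for stress response factors and cholesterol enzymes the whole bulk curve lies below control.

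Genes of the integrated stress response went the other way. Of its 9 transcription factors and partners 8 were lower in bulk, with a median log2 ratio of -0.88, and of its 9 stress effectors 8 were lower, with a median of -1.12. Atf4 itself stood at 327 CPM (322 to 331) in control and 177 (174 to 180) in bulk. Ddit3 (CHOP), the factor linked to cell death, stood at 217 CPM (213 to 220) and 48.7 (47.1 to 50.2). Trib3, a pseudokinase that Ddit3 and Atf4 induce, was at 37.0 and 8.56 CPM, and Atf3, a partner of the same family, at 59.4 and 20.5. The bulk level was below control by more than counting error for each of these 4 factors. Among the effectors Chac1, which breaks down glutathione, was at 71.9 and 14.8 CPM, and the secreted factor Gdf15 at 119 and 29.4. Vegfa, the vascular growth factor, was at 36.1 and 16.0 CPM and the secreted protein Stc2 at 17.6 and 6.19. Ppp1r15a (GADD34), which reverses eIF2 phosphorylation, was at 30.2 and 14.6 CPM, while the eIF2 kinase Eif2ak2 (PKR), also an interferon target, was at 11 and 18.2.

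The lower level was spread over many cells: at least 1 UMI of the 9 factors was found in 78.9% of thinned control cells and 57.6% of bulk cells. Ddit3 was detected in 36.6% of thinned control cells (35.4 to 37.8) and 10.9% of bulk cells (10.1 to 11.7), Chac1 in 18.0% and 3.51%. The median control cell held 2 UMIs of the 9 factors (quartiles 1 and 4) and the median bulk cell 1 (quartiles 0 and 2). The library of localized electroporation was lower again: Ddit3 stood there at 19.7 CPM, Chac1 at 1.80 and Atf4 at 104. Of the 3 libraries control was thus the highest and localized the lowest in these 3 genes, with bulk between, and what the control cells underwent before harvest is not given.

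The metabolic arm of the same response was lower by smaller amounts. Of 9 amino acid transporters 8 were lower in bulk (median -0.34), led by Slc3a2, the heavy chain of the cystine and leucine exchangers, at 390 and 230 CPM. Of 14 enzymes of amino acid and one-carbon synthesis 10 were lower (median -0.11), with the mitochondrial folate enzyme Mthfd2 at 215 and 104 CPM. The 20 cytosolic tRNA synthetases lay close to control: 14 were lower and 6 higher, with a median of -0.07, and none passed 1.5-fold. Mthfd2 was the only gene of these 3 lists at least 2-fold lower.

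Cholesterol synthesis was lower in bulk along nearly its whole length. Of the 20 enzymes 19 were lower, with a median log2 ratio of -0.62, and the exception was Pmvk, phosphomevalonate kinase, at 104 CPM in control and 118 in bulk. Msmo1, the sterol methyl oxidase, stood at 313 CPM (309 to 318) in control and 122 (119 to 124) in bulk, and the demethylase Cyp51 at 250 and 130. Early steps were also lower, with Hmgcs1 at 476 and 304 CPM and farnesyl diphosphate synthase (Fdps) at 455 and 307. Ebp, a sterol isomerase, differed little, at 34.4 and 34.3 CPM. Summed over the 20 enzymes the level was 2833 CPM in control and 1745 in bulk, and 2600 CPM in the localized library. Of the 20 enzymes 2 passed 2-fold and 11 passed 1.5-fold, all lower, beside 0.602% and 1.84% of all genes tested.

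Several other SREBP targets had the same sign. Insig1, which retains SREBP in the endoplasmic reticulum, was at 93.5 and 37.7 CPM, and Stard4, a cholesterol carrier, at 60.2 and 28.8. The genes of the sensing machinery itself moved less: Srebf2, the cholesterol-specific factor, was at 80.6 and 68.5 CPM and its escort Scap at 21.3 and 23.5. All 9 fatty acid synthesis genes were lower (median -0.27), from Acss2, which makes acetyl-CoA, at 36.6 and 18.8 CPM to Scd2, a desaturase, at 649 and 547. Apoe, the lipid carrier, was higher, at 131 and 170 CPM, and of the 9 genes of sterol uptake, transport and export 5 were lower and 4 higher (median -0.04). In single cells the shift was broad: the median cell held 7 UMIs of the 20 enzymes in control (quartiles 4 and 12) and 4 in bulk (quartiles 2 and 7), and the richest 10% of cells held 27.5% and 30.4% of them.

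**Figure D3:**
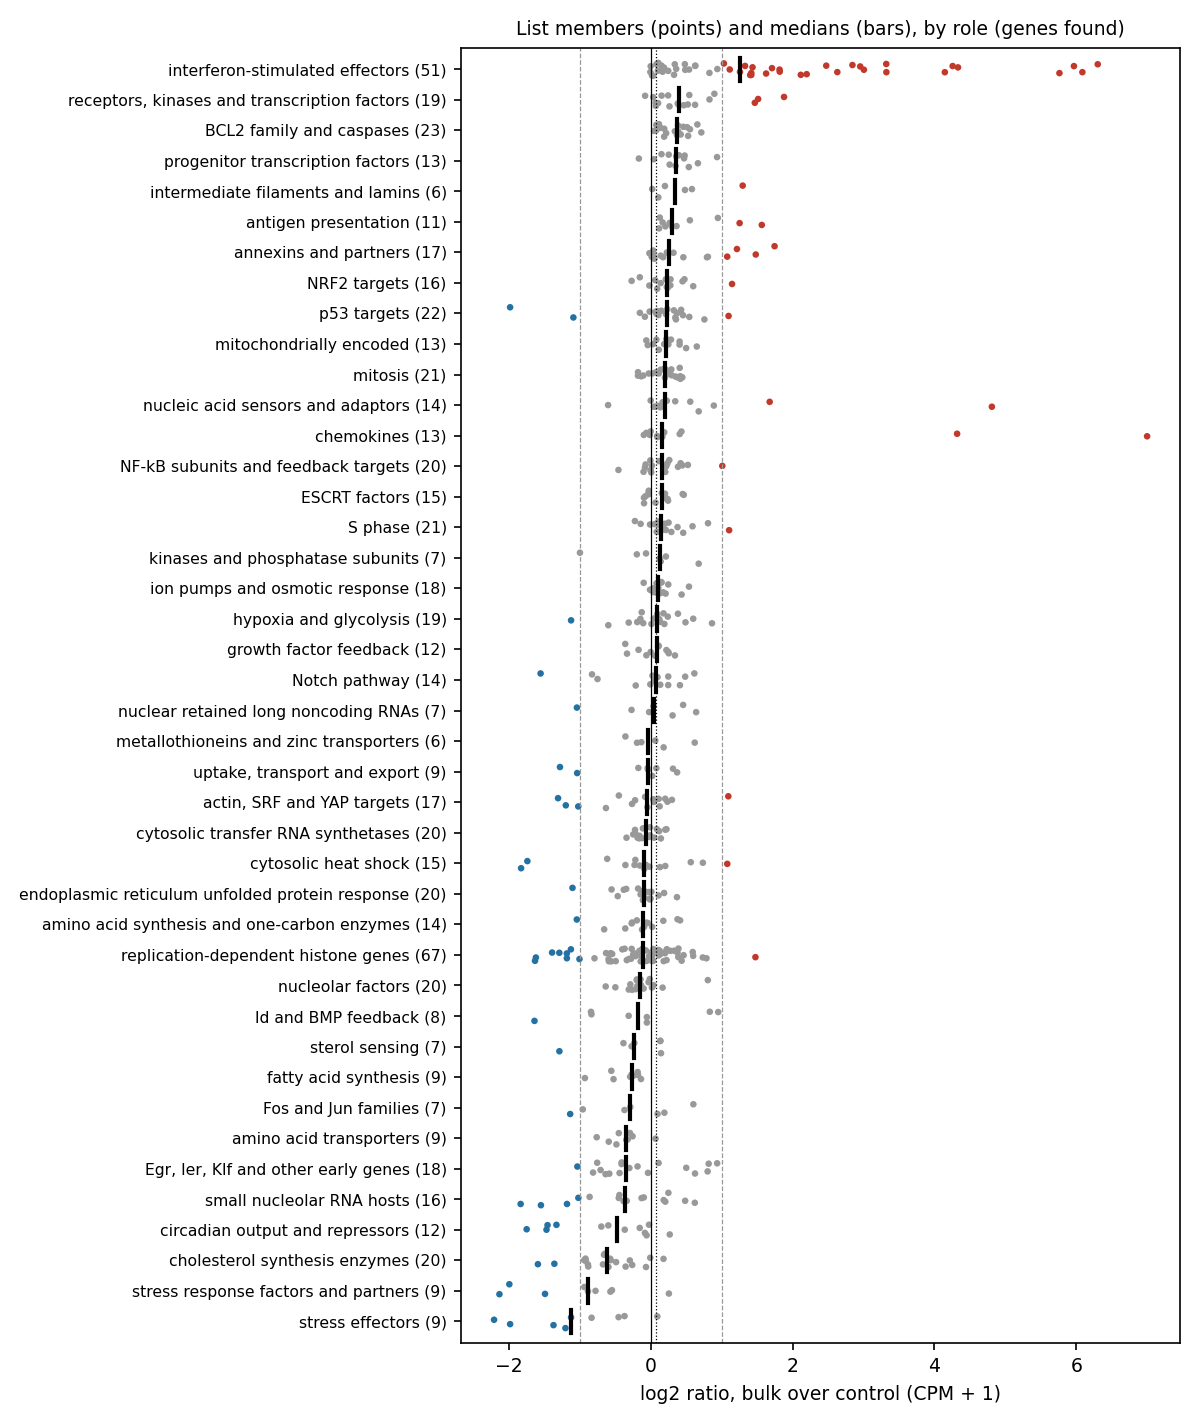
Log2 ratio of bulk over control (horizontal) for each list member (points) with the list median (black bar), lists ordered by median and the number of genes in brackets; dashed lines mark 2-fold and the dotted line the median of all genes tested. Interferon-stimulated effectors lie highest (median 1.26) and stress effectors lowest (-1.12); interferon ligands, nearly all at 0, are left out and the histone family was added after its values were seen.

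RNAs that host small nucleolar RNAs in their introns, and whose spliced remainders are broken down when translated, were mostly lower. Of 16 hosts 11 were lower in bulk and 5 higher (median -0.36). Snhg1 stood at 384 CPM (379 to 389) in control and 131 (128 to 133) in bulk, Snhg5 at 63.1 and 17.0, and Snhg12 at 196 and 96.2. Gas5, the most abundant host, was at 984 and 754 CPM. Snhg20 went the other way, at 20.5 and 32.1 CPM. Of 20 nucleolar factors of ribosome assembly 16 were lower (median -0.15), among them Gnl3 (nucleostemin) at 181 and 116 CPM. Ubtf, which loads RNA polymerase I on ribosomal DNA, was higher, at 68.4 and 120 CPM.

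Early response, Notch, BMP and clock genes were lower in part. Among early response genes Jun was at 263 and 135 CPM, Egr1 at 140 and 85.5 and Ier2 at 75.6 and 42.6, while Ier5, a heat shock cofactor, was at 24.4 and 43.2. Fos was low and close in both, at 23.3 and 18.9 CPM. The lists as a whole held 12 lower genes of 18 (Egr, Ier and Klf, median -0.35) and 4 of 7 (Fos and Jun, median -0.29). Within the 4 bands of cell depth described below, the Egr, Ier and Klf sum gave log2 ratios of 0.20, -0.23, -0.36 and -0.65. It was thus above control in the shallowest band. The Fos and Jun sum gave -0.19, -0.27, -0.29 and -0.29. Feedback genes of growth factor signalling, which report MAP kinase activity, did not lean to a side over all cells: 7 of 12 were higher, with a median of 0.08. Their sum gave 0.40, 0.12, 0.01 and -0.13 from the shallowest to the deepest band. Hes5, a Notch target that keeps progenitors undifferentiated, stood at 90.9 and 30.4 CPM, and Id2, a BMP target, at 178 and 56.7. The Notch list as a whole lay at the background, with 9 of 14 genes higher and a median of 0.07; the receptor Notch1 was at 81.8 and 97.4 CPM and Hes6 at 82.2 and 110. Nfil3, a repressor that is induced by stress and works in the clock, was at 50.5 and 12.7 CPM. Of 12 genes of clock output and repression 11 were lower (median -0.48), led by Ciart (8.51 and 1.83 CPM), Bhlhe40 (25.3 and 8.49), Nr1d1 (21.8 and 7.33) and Bhlhe41 (12.6 and 4.40), and the core period gene Per2 was the exception, at 3.80 and 4.79.

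Several genes of membrane repair and of the nuclear lamina were higher in bulk, although the annexin list as a sum was not so in every band of cell depth. Of 17 annexins and partners 16 were higher (median 0.25). Within the 4 bands described below, their sum gave log2 ratios of 0.16, -0.0007, 0.15 and 0.35. The sum thus stood at control in cells of 6000 to under 12000 UMIs. Anxa2, an annexin that binds damaged membrane in a complex with S100a10, stood at 43.6 CPM (42.0 to 45.3) in control and 124 (121 to 126) in bulk. S100a11, a calcium-binding partner of annexins, was at 134 and 235 CPM, S100a10 at 637 and 878, and Lgals3, a lectin that marks broken endosomes, at 5.62 and 21.2. Myof (myoferlin), which works in membrane fusion, was at 3.95 and 9.46 CPM. Anxa2 was detected in 9.95% of thinned control and 23.4% of bulk cells. It stood at 88.1 CPM in the localized library, where Lgals3 was at 27.9. The ESCRT factors, which pinch off damaged membrane, lay close to control with 9 of 15 higher (median 0.16) and none past 1.5-fold.

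Among filaments, Lmna (lamin A/C), which stiffens the nucleus, was at 46.8 and 117 CPM, and nestin (Nes), the progenitor filament, at 327 and 489, while Vim was at 2651 and 2856. All 6 genes of that list were higher (median 0.34). The actin list was split, with 8 higher and 9 lower (median -0.05). Among its lower members were Actg1, cytoplasmic actin, at 2595 and 1676 CPM, the actin-dependent factor Srf at 13.0 and 5.92, Cnn2 at 21.1 and 8.63 and the YAP target Ccn1 at 10.1 and 3.50, and its highest was Ajuba, a LIM protein of cell junctions, at 2.82 and 7.15.

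**Figure D4:**
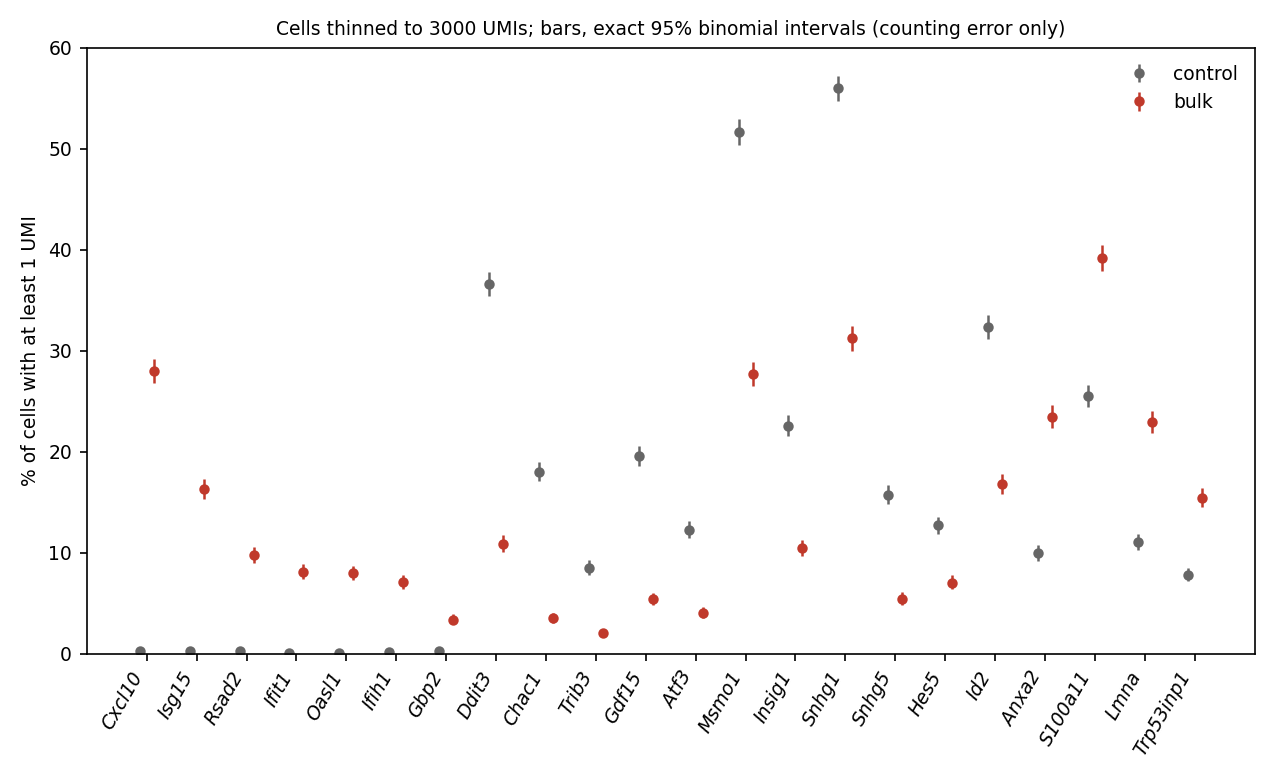
Share of cells with at least 1 UMI of each gene (vertical, %) after thinning to 3000 UMIs, control in grey and bulk in red, with exact binomial 95% intervals that cover counting error. Cxcl10 was found in 0.312% of control and 28.0% of bulk cells, and Snhg1 in 56.0% and 31.2%.

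Genes of cell death and survival were higher by small amounts. All 23 genes of the BCL2 family and caspases were higher in bulk (median 0.37), led by the survival factor Mcl1 at 85.1 and 140 CPM and by Diablo, which frees caspases, at 18.7 and 30.1. The 9 of these 23 with 20 CPM in both libraries had a median of 0.22. Cytochrome c (Cycs, 613 and 633 CPM) and the pore former Bax (611 and 647 CPM) lay close to control. Among p53 targets 17 of 22 were higher (median 0.23). Trp53inp1, which promotes p53-dependent arrest, was at 29.3 and 63.9 CPM, Phlda3, an Akt inhibitor, at 127 and 216, and the cell cycle inhibitor Cdkn1a at 564 and 773. Gdf15 and Gadd45a (25.2 and 11.3 CPM), which the stress response also drives, were the 2 members at least 2-fold lower.

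Genes of the unfolded protein response were mostly lower in bulk, cytosolic chaperones were split, and NRF2 targets were mostly higher. Of 20 genes of the unfolded protein response in the endoplasmic reticulum 16 were lower (median -0.10), with Herpud1, of protein disposal, at 50.7 and 23.1 CPM and the chaperone Hspa5 (BiP) at 383 and 261. Of 15 cytosolic heat shock genes 10 were lower and 5 higher (median -0.09). Hspa8, the constitutive chaperone, was at 1629 and 1065 CPM. The near-identical inducible pair Hspa1a and Hspa1b, whose reads cannot be parted with confidence, was at 8.5 and 1.68 and at 8.32 and 1.79 CPM. Bag3, a cochaperone, was higher, at 9.07 and 20.3 CPM. Of 16 NRF2 targets 13 were higher (median 0.23): Srxn1, which repairs peroxiredoxins, was at 12 and 27.9 CPM, Txnrd1 at 164 and 229, and the ferritin light chain Ftl1 at 2077 and 2835. The mitochondrially encoded transcripts summed to 36246 CPM in control and 41945 in bulk, with 11 of 13 higher (median 0.22).

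Progenitor factors were higher in bulk, and the direction of the cell cycle genes depended on cell depth. Of 13 progenitor transcription factors 12 were higher (median 0.36), among them Sox1 (12 and 23.9 CPM), Sox9 (91.7 and 128) and Olig2 (194 and 255). Of 21 mitosis genes 16 were higher (median 0.20), and the median cell held 3 UMIs of them in control and 4 in bulk. Within the 4 bands of cell depth described below, however, their sum gave log2 ratios of -0.23, 0.07, -0.07 and -0.28, below control in 3, and the share of thinned cells with a mitosis UMI was lower in bulk in each. Of 21 S phase genes 18 were higher (median 0.14), led by the cyclins Ccne2 (7.46 and 17.2 CPM) and Ccne1 (16.8 and 30.2). Within the bands their sum gave -0.04, 0.02, 0.10 and 0.16, and the share of thinned cells with an S phase UMI was likewise lower in bulk in each. Replication-dependent histone genes, a family examined after their values were seen, summed to 9898 CPM in control and 6946 in bulk. Hist1h2ae alone stood at 1075 and 473 CPM, Hist1h3c at 130 and 52.7, and 38 of the 67 genes were lower and 29 higher. Their median of -0.12 changed sign, to 0.01 as a mean over cells and in cells of at most 25000 UMIs and to 0.03 in cells of 6000 to 20000, while their sum was below control in all 4 bands of depth. Hist3h2a was higher, at 8.13 and 24.4 CPM. These genes are nearly identical copies with mostly unpolyadenylated transcripts, so values of single copies are uncertain.

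The 15 highest genes included one outside any program described above, Camk1d, a calcium-dependent kinase, at 11.1 and 36.1 CPM. The 15 lowest included Gadd45b, a stress-induced regulator of MAP kinases, at 35.9 and 11.8 CPM.

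The differences were re-read within bands of cell depth, because bulk had more cells of many UMIs. In cells of 3000 to under 6000 UMIs (1053 control and 608 bulk), 6000 to under 12000 (3350 and 2291), 12000 to under 25000 (1620 and 2099) and 25000 or more (68 and 533), the summed effectors gave log2 ratios of 1.49, 1.72, 1.94 and 2.99. The effector difference was largest in the deepest band, where control had 68 cells. Cxcl10 alone gave 6.54, 5.83, 6.94 and 8.95, and Isg15 gave 5.41, 5.44, 5.61 and 8.08. In the shallowest and deepest bands control held 2 and 2 UMIs of Cxcl10 and 1 and 1 of Isg15. With 1 CPM added to both sides, the ratios of those bands follow mainly the bulk level. The stress response factors gave -0.83, -1.16, -1.30 and -0.89 as a sum, and the cholesterol enzymes gave -0.52, -0.57, -0.58 and -1.11. Both lists were below control in all 4 bands. In cells of 6000 to 20000 UMIs alone, log2 ratios that moved by over 1.5 times in fold were those of Cxcl10 (6.40), Isg15 (5.57), Ifih1 (4.19), Rtp4 (3.50), Gbp2 (2.71) and Lgals3 (1.08), each still above control. Anxa2 gave 1.48, 1.16, 1.35 and 1.37, and Hist1h2ae gave -1.15, -1.15, -1.05 and -1.55.

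**Figure D5:**
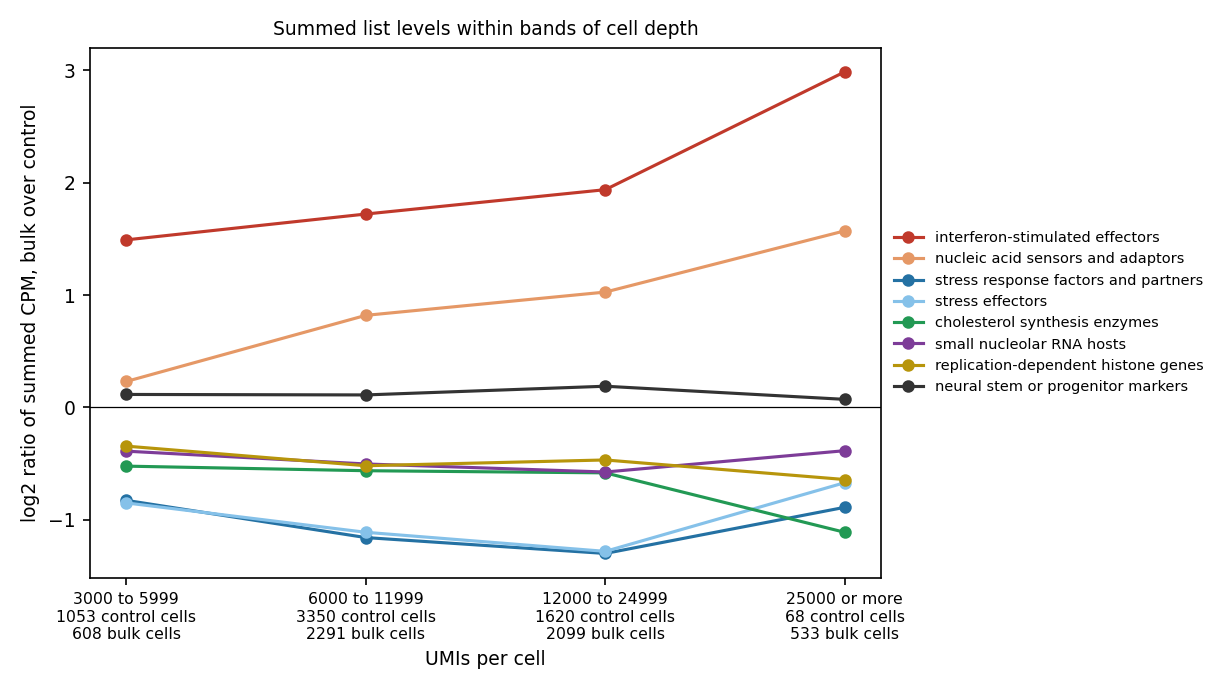
Log2 ratio of summed CPM of a list, bulk over control (vertical), within 4 bands of UMIs per cell (horizontal, with the number of cells in each library). Effectors go from 1.49 in the shallowest to 2.99 in the deepest band, stress response factors and cholesterol enzymes lie below 0 in each, and progenitor markers stay near 0.

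The programs were also read in bulk cells divided by their interferon counts. Of the bulk cells 2052 (37.1%) held no UMI of the effector and chemokine lists after thinning, 2499 (45.2%) held 1 to 4 and 980 (17.7%) held 5 or more, beside 59.9%, 39.6% and 0.509% of control cells. These cells were chosen on interferon genes, so those genes are not compared between them. A count of 0 after thinning does not show that a cell lacked the transcripts: before thinning, the summed chemokines of the class with none were still at a log2 ratio of 1.07 over control. Against all control cells, the stress response factors had a median log2 ratio of -1.14 in the cells with none, -0.97 in those with 1 to 4 and -0.48 in those with 5 or more. The cholesterol enzymes ran in the reverse order, with -0.43, -0.61 and -0.95. The annexins and partners gave 0.01, 0.28 and 0.63, and the snoRNA hosts -0.30, -0.41 and -0.37. Oligodendrocyte precursor markers gave medians of 0.25, -0.72 and -2.08, but as a sum 0.36, 0.0006 and -0.65. Median depth differed between these classes, with 10082.5, 11942 and 14763.5 UMIs. The parts of depth and of cell type in these values were not tested.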

How the data were processed

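The authors deposited a 10x Genomics matrix of whole-number UMI counts per library, unnormalized and unfiltered, made with Cell Ranger 4 per the file headers, while the submitters' processing notes name Cell Ranger 6, Seurat 4.0.4 and GRCm38. Whether counting used strand is not given in the sources used here, so whether reads of overlapping and antisense genes were kept apart was not checked. No doublet caller was run and no doublets were removed. In Python 3.11.15 (numpy 2.4.6, scipy 1.17.1, pandas 2.3.3, matplotlib 3.10.9) cells were taken at 3000 UMIs, 500 genes and 20% mitochondrial UMIs, which held 83.0% (control) and 90.4% (bulk) of 74429007 and 85743257 UMIs. Counts were summed over cells, scaled to CPM, and compared as log2 ratios of CPM + 1 over genes that reached 20 CPM in control, bulk or both. Exact Poisson (levels) and Clopper-Pearson (shares, ratios) intervals cover counting error only. Shares used cells thinned to 3000 UMIs (seed 7). Gene coordinates follow GRCm38. The ratio, call and interval steps were tested on simulated data. Oas1b, Mx1, Mx2, Cxcl11 and Snhg7 had no row under those symbols. Named genes are list members, at most 5 per role in full with others by example, and the 15 highest and 15 lowest genes without predicted and ribosomal protein genes. Some list members beyond 5 per role, and the histone family, were chosen after their values were seen. The comparison and the lists were chosen with earlier results of these data known. Some list members are counted in their lists and not reported here by name.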

Additional observations from a re-analysis of the deposited data

How the results depend on the processing

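Alternatives changed scaling, cell filters, the pseudocount or the minimum level, one at a time. Genes at least 2-fold higher numbered 35, and 19 in cells of 6000 to 20000 UMIs, 23 in cells of at most 25000 UMIs, 92 with a minimum of 5 CPM in either library and 5 with 20 CPM in both. Genes at least 2-fold lower numbered 35, and 56 with a minimum of 5 CPM and 22 with 20 CPM in both. The median log2 ratio of the interferon-stimulated effectors, 1.26, was 0.92 in cells of 6000 to 20000 UMIs, 0.91 in cells of at most 25000, 1.83 with a pseudocount of 0.1 CPM and 0.48 over members of at least 5 CPM in control. That of the stress response factors, -0.88, was -0.94 with median-of-ratios size factors, -0.96 as a mean over cells, -1.03 in cells of 6000 to 20000 UMIs and -1.03 in cells of at most 25000. That of the cholesterol enzymes, -0.62, was -0.55 as a mean over cells, -0.52 in cells of 6000 to 20000 UMIs and -0.53 in cells of at most 25000. The cause was not tested beyond the smaller numbers of cells or genes. Keeping cells with at most 1 UMI of the oligodendrocyte precursor and oligodendrocyte markers left 3757 control and 3307 bulk cells, gave 50 higher and 43 lower genes and moved 45 named genes and 4 other list medians. Leaving out cells with a UMI of 10 oligodendrocyte lineage genes, chosen after seeing the data, left 4726 control and 4491 bulk cells and gave 41 higher and 38 lower genes. None of the 18 other list medians of at least 0.2 in size and none of the 73 named genes of at least 1 changed sign. Among medians under 0.2 in size, those of sterol uptake and export, metallothioneins, nuclear long noncoding RNAs and the histone genes did, the last from -0.12 to 0.01 as a mean over cells and in cells of at most 25000 UMIs and to 0.03 in cells of 6000 to 20000. No paired analysis was possible because each group is 1 library.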
